A study of Mus musculus with 137 samples.

Results

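Resting bone marrow-derived macrophages homozygous for the Beclin1 F121A change were compared with macrophages of littermates across all genes. The libraries were taken by their labels, as those without LPS or IFN-gamma in the knock-in cohort, and came to 12 of the 137 in the series: 6 of genotype Beclin1F121A/F121A (F121A) and 6 littermate controls (WT). Marrow came from mice aged 7 weeks and was cultured with 20 ng/ml M-CSF over 7 days, then plated again. The same cohort holds 6 F121A and 6 WT libraries at each of 6 h and 24 h after LPS and IFN-gamma, both at 100 ng/ml. A separate cohort, called KO2 here, supplied 8 resting libraries of Beclin1flox/flox LysM-Cre+ macrophages and 8 of their Cre-negative littermates. LysM-Cre deletes in myeloid cells, whereas the F121A change is in every cell of the mouse. The labels do not say whether libraries of a group came from separate mice or cultures, so p-values measure the spread between these libraries, which may be technical. RNA was copied by Smart-Seq2, a full-length method that primes on poly(A) tails and keeps no strand.

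Beclin1 is a subunit of the class III phosphatidylinositol 3-kinase complexes, which make the lipid PI3P on forming autophagosomes and on endosomes. With ATG14 the complex starts autophagosomes, and with UVRAG it acts in endosome and autophagosome maturation. BCL2 binds the BH3 domain of Beclin1 and holds the complex back, and the F121A change in that domain weakens the binding, so that autophagy runs at a higher basal rate in mice that carry it. In macrophages these complexes also serve LC3-associated phagocytosis and the control of interferon and inflammatory signalling.

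F121A replaces a phenylalanine, among the 448 residues of mouse Beclin1, with alanine. In the reference (GRCm38 with GENCODE vM21) its codon is at chr11:101295414-101295416 on the minus strand, in exon 6. It is shown because it is the only designed difference between the groups, in capitals and with 30 coding bases on either side, which run from exon 5 to exon 6.
Becn1 codon of F121A: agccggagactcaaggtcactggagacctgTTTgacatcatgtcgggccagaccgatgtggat
The count table holds reads per gene, so the codon that each library carried was not analysed here.

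The difference in Becn1 RNA between the genotypes was within the spread between libraries. Values are CPM, counts scaled to library size with TMM factors, given for each group as lowest, median and highest. Becn1 stood at 23.9, 29.1 and 31.02 CPM in F121A macrophages, against 27.3, 29.6 and 36.03 CPM in WT. The groups overlapped, and the log2 fold change of F121A over WT was -0.08 with a standard error of 0.09 (adjusted p = 0.85 by edgeR's quasi-likelihood test with Benjamini-Hochberg adjustment, which gave every adjusted p below). The macrophage label was checked on its markers. Csf1r, the M-CSF receptor, had 5713 to 7518 CPM in F121A and 7238 to 8105 CPM in WT, and Emr1 (F4/80), Cd68, Cd14, Fcgr1, Mertk and Itgam were present in all 12 libraries with none called.

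Total counts ran from 4838706 to 8855041 in F121A and from 3574158 to 10233584 in WT. F121A replicate 5 stood apart: 34.2% of its counts fell on 13 satellite-like transcripts (Gm10800 and similar repeats), against 0.117% to 1.01% in the other 11 libraries, and it alone set the first principal component, with 36.7% of the variance. Its TMM factor was 1.18, against 1.54 to 1.94 in the others. Titles of the WT libraries end in S1 to S6 and those of the F121A libraries in S19 to S24. The labels do not say what these numbers stand for, and whatever they stand for cannot be told apart from genotype.

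At rest 338 of 11500 genes tested were called at an adjusted p under 0.05, which is 2.94%. Of these, 272 were higher (2.37%) and 66 lower (0.574%) in F121A macrophages, and 1337 genes (11.6%) had an unadjusted p under 0.05. The count of lower genes depended more on the processing: DESeq2 called 277 higher and 113 lower, and a fit to the 12 resting libraries alone 223 higher and 91 lower. The higher calls had a median log2 fold change of 0.83, with 104 of them over 1, and the lower calls a median of -0.46, with 8 past -1. The 6 F121A libraries all lay above the 6 WT libraries in 130 of the higher calls, and all below them in 50 of the lower calls; over all genes tested this held for 180 (1.57%) and 116 (1.01%). Without F121A replicate 5, 254 of 11654 genes were called (2.18%), 208 higher (1.78%) and 46 lower (0.395%), and 240 of the 338 were among them. The median over all genes was 0.01 in log2.

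**Figure D1:**
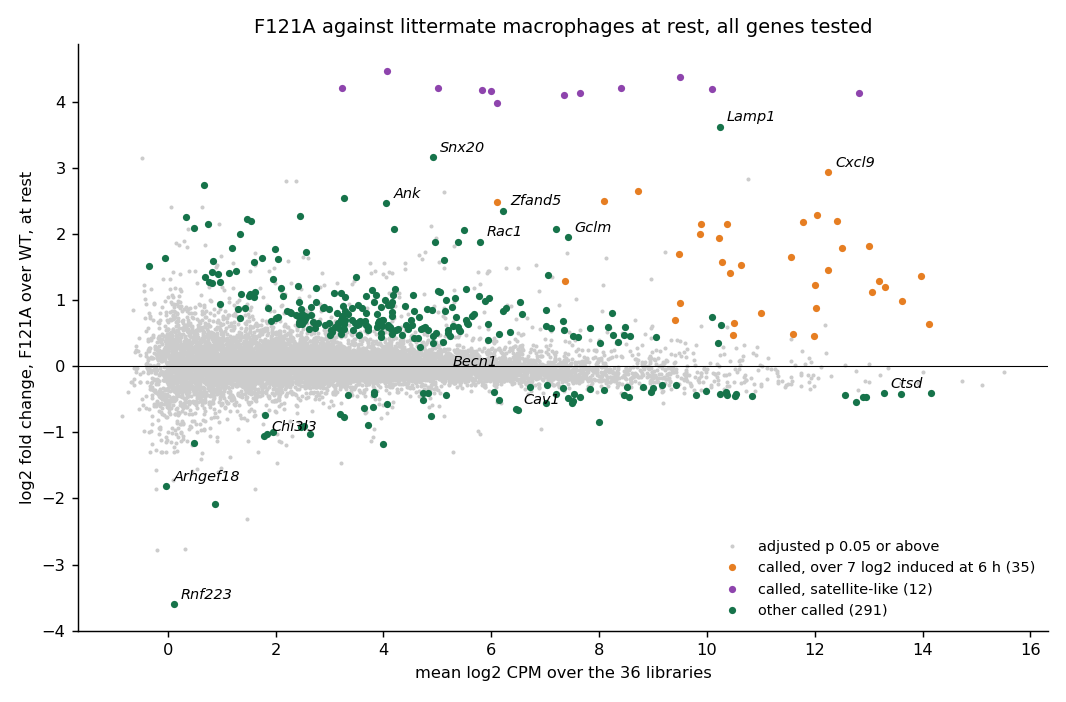
Log2 fold change of F121A over WT at rest against the mean log2 CPM over the 36 libraries of the cohort, 1 point per gene for 11500 genes. Coloured points are the 338 called genes: 12 satellite-like transcripts near 4 log2, 35 genes over 7 log2 induced by 6 h of LPS and IFN-gamma, and 291 others. The highest of the others is Lamp1, at 3.62 log2.

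Apart from the satellite-like transcripts, Lamp1 showed the largest difference among genes averaging 3 or more in log2 CPM. Lamp1 encodes an abundant glycoprotein of the lysosomal membrane. It had 1407, 1869 and 2284 CPM in F121A macrophages, against 106, 149 and 216 CPM in WT. Each F121A library was above every WT library, by a log2 fold change of 3.62 (SE 0.26, adjusted p = 1.9e-13), or 12.3-fold. Alternative processing left it between 3.54 and 3.75, called in 22 of 22 alternatives. Lamp1 spans chr8:13159161-13175338 on the plus strand (GRCm38). Its promoter is shown because CACGTG, the core of the E-box that TFEB and related factors bind in lysosomal genes, stands 4 times in the 250 bases before the start (chr8:13158911-13159160, plus strand, RefSeq on GRCm38.p6), in capitals here.
Lamp1 promoter: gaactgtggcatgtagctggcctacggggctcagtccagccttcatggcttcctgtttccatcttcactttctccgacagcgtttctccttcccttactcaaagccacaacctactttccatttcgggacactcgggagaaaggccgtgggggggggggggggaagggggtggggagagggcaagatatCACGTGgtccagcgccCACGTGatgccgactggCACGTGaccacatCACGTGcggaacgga
Promoters were searched in the 250 bases before the start, on both strands. CACGTG was present in 9.8% of the promoters of higher calls, 10% of those of lower calls and 10.2% of those of all genes tested with a promoter in the table. A match describes the letters and not a bound site.

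Few other lysosomal genes passed the test. Of 48 tested genes for lysosomal hydrolases, membrane proteins and the TFEB family, 1 rose (Lamp1), 3 fell and 44 did not pass the test. Over all genes tested 2.37% were higher and 0.574% lower, which is the background for each list. The list median was -0.18 in log2, and 5 of the 48 genes were above 0, against 5957 of all 11500. Its summed level was 56301 to 69238 CPM in F121A and 69557 to 82406 CPM in WT, without overlap. Such a sum follows the most abundant genes. Ctss (cathepsin S, a cysteine protease that trims antigen peptides) had 5970, 6975 and 7513 CPM in F121A, against 8244, 9530 and 10490 CPM in WT. Its groups did not overlap, at -0.46 log2 (SE 0.10, adjusted p = 0.0024). Ctsd (cathepsin D, an aspartic protease) fell by 0.41 (adjusted p = 0.016) and Gm2a, the activator protein for ganglioside breakdown, by 0.34 (adjusted p = 0.033). The Ctsd call is lost without F121A replicate 4 or WT replicate 6, and that of Gm2a without any of 6 single libraries. The vacuolar ATPase, which acidifies the lysosome, had 2 of 18 genes lower and none higher. These were Atp6ap2, an accessory subunit (-0.44, adjusted p = 0.0035), and Atp6v1a, a catalytic subunit (-0.39, adjusted p = 0.010). The Atp6v1a call is lost without F121A replicate 5 (adjusted p = 0.051).

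In endosomal sorting, 2 of 46 genes rose and none fell, with a list median of -0.03. Both are sorting nexins, proteins that bind membrane phosphoinositides. Snx20, which carries a PX domain, had 5.59, 17.5 and 24.1 CPM in F121A and 0.885, 2.20 and 2.58 CPM in WT. The log2 fold change was 3.16 (SE 0.43, adjusted p = 5.6e-06). Snx18, which also has a BAR domain and takes part in autophagosome formation, had 15.7, 22.1 and 35.5 CPM in F121A and 4.71, 6.39 and 7.40 CPM in WT, at 1.88 log2 (SE 0.23, adjusted p = 4.25e-07). For both genes all F121A libraries lay above all WT libraries.

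**Figure D2:**
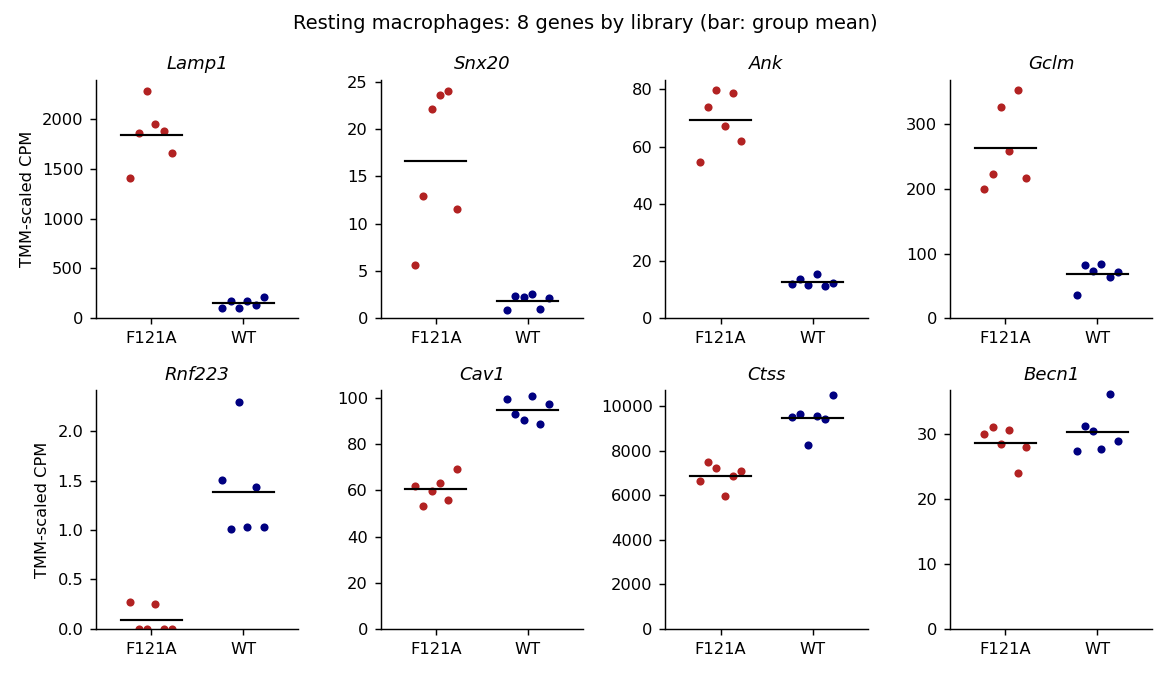
CPM of 8 genes in each resting library, F121A on the left and WT on the right of each panel, with a bar at the group mean. Lamp1, Snx20, Ank and Gclm lie higher in all 6 F121A libraries, Rnf223, Cav1 and Ctss lower in all 6, and Becn1 overlaps.

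Among 26 tested genes of the Beclin1 and class III PI3-kinase complexes and their regulators, 2 rose and none fell (median -0.04). Sh3glb1 (Bif-1), which joins Beclin1 through UVRAG and bends membranes, had 136, 156 and 167 CPM in F121A and 95.0, 108 and 129 CPM in WT. Its groups did not overlap, at 0.46 log2 (SE 0.10, adjusted p = 0.0031). Uvrag itself had 34.1, 43.2 and 46.3 CPM in F121A and 19.7, 30.7 and 34.5 CPM in WT, at 0.50 (SE 0.13, adjusted p = 0.020). The ranges of Uvrag touched, and its call is lost without F121A replicate 3 or 4 or WT replicate 1.

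The other subunits gave small values that did not pass the test. The lipid kinase Pik3c3 (VPS34) had a log2 fold change of -0.06, its partner Pik3r4 (VPS15) -0.27, Atg14 -0.15, Nrbf2 0.05 and Ambra1 0.20. The inhibitor gene Rubcn is listed as 1700021K19Rik and had -0.13. The Beclin1 binding partners of the BCL2 family gave 0.17 for Bcl2, 0.11 for Bcl2l1, -0.02 for Mcl1 and -0.09 for Bcl2l11. The deubiquitinases Usp10 and Usp19 gave -0.26 and 0.11, the ubiquitin ligase Traf6 -0.08, the kinases Dapk1 and Tbk1 0.27 and -0.10, and the phosphatase subunit Ppp2ca 0.26. Vmp1, a membrane protein of the endoplasmic reticulum needed for autophagosome formation, gave -0.11, the chromatin protein Hmgb1 -0.13, and the C9orf72 partners Smcr8 and Wdr41 -0.21 and -0.06. Rubcnl, which promotes autophagosome maturation, is listed as 5031414D18Rik and had 0.48 (adjusted p = 0.054), and the receptor Slamf8 had 0.51 (adjusted p = 0.25). Nedd4, Usp13 and Dapk2 had too few counts to be tested. Slamf1, a receptor known to bind Beclin1, had 0 to 0.461 CPM in F121A and 0 to 0.253 CPM in WT, too little to compare. In the wider lists, none of 35 autophagy core genes, 21 cargo receptors and 15 BCL2 family genes was called. Their medians were -0.05, -0.04 and 0.03.

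The remaining large increases did not fall into one listed pathway. By the rule for naming genes applied without F121A replicate 5, they were as follows. Ank, a membrane protein for pyrophosphate export, had 54.7, 70.5 and 79.9 CPM in F121A and 11.2, 12.02 and 15.5 CPM in WT (log2 fold change 2.46, SE 0.14, adjusted p = 2.5e-16). Faf1, an adaptor of the p97 ATPase, had 11.3, 13.3 and 22.7 CPM in F121A and 1.52, 2.72 and 3.61 CPM in WT (2.54, adjusted p = 6.9e-11). Zfand5, a zinc finger protein that stimulates the proteasome, had 65.2, 84.1 and 120 CPM in F121A and 15.6, 16.4 and 19.8 CPM in WT (2.35, adjusted p = 1.5e-11). For these 3 genes the lowest F121A library was over 2-fold above the highest WT library. Rnf187, a ubiquitin ligase, rose by 2.06 in log2 (adjusted p = 4.3e-10) and Fam49b, which binds the GTPase RAC1 and restrains it, by 2.07 (adjusted p = 2.1e-11). None of these 5 calls is lost in any of the 22 alternatives.

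Of genes outside that rule, chosen after their values were seen, Rac1 itself had 31.8, 59.0 and 269 CPM in F121A and 21.5, 22.4 and 30.1 CPM in WT. F121A replicate 5 holds the value of 269 CPM. The log2 fold change was 1.88 with it (adjusted p = 5.7e-04) and 1.16 without it (adjusted p = 0.0038). Clptm1l was 2.08 log2 higher, and 1.66 without that replicate. Alkbh5, an RNA demethylase, had 18.5, 20.9 and 25.2 CPM in F121A and 8.18, 9.12 and 11.7 CPM in WT (1.17, adjusted p = 7.2e-12). The kinase gene Dapk3 (2.73, adjusted p = 9.0e-05) and the dynein assembly factor Heatr2 (2.22, adjusted p = 1.6e-05) rose at low counts, with medians of 1.45 and 3.55 CPM in F121A and 0.305 and 0.728 CPM in WT.

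Glutathione genes rose in part. Gclm, the modifier subunit of the rate-limiting enzyme of glutathione synthesis, had 199, 241 and 353 CPM in F121A and 35.9, 72.2 and 83.8 CPM in WT, with no overlap (log2 fold change 1.95, SE 0.20, adjusted p = 7.0e-09). Gsr, glutathione reductase, had 11.4, 12.8 and 27.9 CPM in F121A and 5.75, 7.82 and 9.20 CPM in WT (0.97, adjusted p = 8.1e-05; 0.75 without replicate 5). Txnrd1, thioredoxin reductase, rose by 0.58 (adjusted p = 0.043), and its call is lost without replicate 5 (adjusted p = 0.24) and without any of 6 other single libraries. In all 3 of 34 tested NRF2 and antioxidant genes rose and none fell, with a median of -0.08, where 2.37% of all genes tested rose. Gclm spans chr3:122245557-122270732 on the plus strand. The 250 bases before its start (chr3:122245307-122245556, plus strand, RefSeq on GRCm38.p6) are shown with the match to TGACNNNGC, the antioxidant response element core, in capitals, where it reads on the minus strand.
Gclm promoter: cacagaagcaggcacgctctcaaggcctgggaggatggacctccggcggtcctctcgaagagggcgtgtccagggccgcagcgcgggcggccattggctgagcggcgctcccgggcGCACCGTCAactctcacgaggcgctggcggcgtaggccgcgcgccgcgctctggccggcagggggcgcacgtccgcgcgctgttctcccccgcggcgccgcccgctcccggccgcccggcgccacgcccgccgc
TGACNNNGC was present in 15.7% of the promoters of higher calls, 18% of those of lower calls and 14.2% of those of all genes tested. The core of the interferon-stimulated response element, GAAA followed by any 2 bases and GAAA, was present in 7.84% of the promoters of higher calls, 14% of those of lower calls and 3.61% of those of all genes tested. In the higher calls that were not satellite-like and at most 5 log2 induced by stimulation it was present in 2.89%. The p53 target list had 2 of 19 genes higher, the polo-like kinase Plk3 (1.76, adjusted p = 4.1e-05) and Phlda3 (1.63, adjusted p = 0.0042), with a list median of 0.03.

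Of 34 tested macrophage identity genes 1 rose (C1qc) and 1 fell (Lyz1), with 11 above 0 and a median of -0.06. The summed level of that list was 82879 to 101907 CPM in F121A and 102453 to 115438 CPM in WT, without overlap. Of 31 phagocytic, scavenger and Fc receptors 1 rose (Mrc1) and 1 fell (Itgb2). C1qc, a chain of complement C1q, had 1463, 1764 and 2082 CPM in F121A and 847, 1090 and 1216 CPM in WT (log2 fold change 0.74, SE 0.15, adjusted p = 0.0023). Mrc1, the mannose receptor, had 11.8, 15.3 and 16.5 CPM in F121A and 5.75, 8.62 and 9.11 CPM in WT (0.86, adjusted p = 4.9e-04). Lyz1, a lysozyme gene with a close copy in Lyz2, had 26.3, 30.5 and 36.3 CPM in F121A and 34.2, 40.6 and 49.4 CPM in WT (-0.41, adjusted p = 0.034), and its call is lost without any of 7 single libraries. Of 18 prostaglandin and leukotriene enzymes 2 rose, Hpgd and Ptgs2, and 1 fell, Pla2g7. The Ptgs2 call is lost without F121A replicate 1 and in a fit to the resting libraries alone. Hpgd, which inactivates prostaglandins, had 150, 164 and 170 CPM in F121A and 93.1, 103 and 112 CPM in WT (0.65, adjusted p = 0.0011). Pla2g7, a secreted phospholipase that inactivates platelet-activating factor, had 85.6, 104.01 and 129 CPM in F121A and 133, 142 and 169.99 CPM in WT (-0.45, adjusted p = 0.0085). C1qc, Mrc1 and Hpgd were higher, and Pla2g7 lower, in every F121A library. The complement list had 1 of 14 genes called, the alternative activation list 1 higher and 1 lower of 18.

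Genes that fell included a ring finger gene, membrane receptors and cytoskeletal proteins. Rnf223, outside the naming rule and chosen after its values were seen, had 8 counts over all 6 F121A libraries and 96 counts over the 6 WT libraries (log2 fold change -3.60, adjusted p = 5.0e-05). It had 0 counts in every F121A library at 6 h and 24 h. Arhgef18, a guanine nucleotide exchange factor chosen in the same way, had 0.186 to 0.829 CPM in F121A and 0.844 to 1.79 CPM in WT (-1.82, adjusted p = 6.9e-04). Among better expressed genes, Cav1, the coat protein of caveolae, had 53.3, 60.9 and 69.4 CPM in F121A and 88.8, 95.3 and 101 CPM in WT (-0.65, SE 0.12, adjusted p = 4.4e-04). Vim (vimentin) had 958, 1539 and 1597 CPM in F121A and 1809, 2062 and 2378 CPM in WT (-0.54, adjusted p = 0.0035). Ahnak, a giant scaffold protein, fell by 0.55 (adjusted p = 0.0021). The immune receptors Cd200r4 (-0.75, adjusted p = 3.9e-05), Ly9 (-0.66, adjusted p = 0.010), Sirpb1c (-0.63, adjusted p = 0.0014) and Pira2 (-0.62, adjusted p = 0.0039) were lower in every F121A library. Sirpb1c and Pira2 belong to families of near-identical genes, so their counts are uncertain. The pseudogene Actg-ps1, which shares sequence with actin genes, was at -1.18 (adjusted p = 0.014). The adhesion proteins Flrt3 (-0.89, adjusted p = 0.026) and Gpr126 (-0.72, adjusted p = 0.044), the zinc transporter Slc30a6 (-0.44, adjusted p = 0.035) and the predicted genes Gm5388 (-0.77, adjusted p = 0.038) and Gm6548 (-0.58, adjusted p = 0.026) were lower too, each with a call that is lost without any of 5 to 7 single libraries.

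In the integrin, adhesion and matrix list, 2 of 33 genes rose and 4 fell (median -0.13). Itgb2, the common beta chain of leukocyte integrins, had 347, 379 and 403 CPM in F121A and 454, 497 and 582 CPM in WT (-0.42, adjusted p = 0.0019). Itgb7 had -0.56 (adjusted p = 0.025), and its call is lost without F121A replicate 4 or 5 or WT replicate 5 or 6. The collagenase Mmp13 (1.13, adjusted p = 0.0019) and Itgb1 (0.47, adjusted p = 0.014) went the other way, with the Itgb1 call lost without WT replicate 1 or 6. Of lipid handling genes, 2 of 32 fell, the cholesterol exporter Abcg1 (-0.48, adjusted p = 0.0032) and the lipid droplet coat Plin2 (-0.37, adjusted p = 0.024). The Plin2 call is lost without F121A replicate 4 or 5 or WT replicate 5 or 6.

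Of 25 tested MHC class I presentation genes 3 fell and none rose, with a median of -0.13, where 0.574% of all genes tested fell. The heavy chain H2-K1 had 1241, 1690 and 1892 CPM in F121A and 1967, 2275 and 2455 CPM in WT (-0.46, adjusted p = 0.026). H2-D1 was at -0.42 (adjusted p = 0.034) and the light chain B2m at -0.41 (adjusted p = 0.031). All 3 calls are lost without F121A replicate 5 (adjusted p = 0.10, 0.14 and 0.081), and also without F121A replicate 4 or WT replicate 1 or 6. H2-K1 and H2-D1 are similar genes whose reads can be split between them.

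Markers of other cells were few. In the neutrophil list 3 of 8 tested genes were lower and none higher: S100a8 (-0.93, adjusted p = 0.0031), S100a9 (-0.999, adjusted p = 0.0020) and Mmp8 (-0.41, adjusted p = 0.034), whose call is lost without any of 8 single libraries. S100a8 had 1.75, 2.83 and 4.04 CPM in F121A and 3.96, 5.24 and 6.28 CPM in WT. The rest of the tested list was not called: Ltf (-0.59) and Ngp (-0.67) were below 0, and Csf3r (0.09), Cxcr2 (0.47) and Padi4 (0.14) above it. Outside that list, the granule genes Lcn2 (-0.84, adjusted p = 0.012) and Chi3l3 (-1.06, adjusted p = 9.1e-04), which are also made by macrophages, were lower too. The summed level of the 15 neutrophil markers was 81.5 to 94.5 CPM in F121A and 82.4 to 113 CPM in WT. The defining markers Mpo, Elane, Prtn3, Ctsg and Ly6g were each at most 0.688 CPM in every library. In such mixed RNA, fewer cells of a type and less RNA per cell cannot be told apart. Of the other markers, Ighm (0.48, adjusted p = 0.035) and Pf4 (0.65, adjusted p = 0.028) were higher, while the B cell genes Ms4a1 and Pax5 were at most 0.177 CPM, and no marker of T and NK cells, dendritic cells, stromal or endothelial cells was called. The Ighm call is lost without any of 8 single libraries, and that of Pf4 without F121A replicate 3 or 5 or WT replicate 4, 5 or 6.

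Many genes that LPS and IFN-gamma induce were called higher at rest. In some, such as Cd40 and Cxcl9, this came through 4 of the 6 F121A libraries. In others, such as Cxcl10 and Dusp2, all 6 lay above every WT library. Of 35 tested IFN-gamma targets 12 rose and 1 fell (Ly6a, -0.46), with a median of 0.49. Over all genes tested 2.37% rose and 0.574% fell. The inflammatory cytokine and NF-kB list had 11 of 38 higher and 1 lower (Lcn2), median 0.20. Of 22 chemokines 4 rose and none fell (median 0.54), and of 40 type I interferon-stimulated genes 8 rose and none fell (median 0.23). In the type I list 5 were called without F121A replicate 1 or 5 or any 1 of WT replicates 2 to 6. Among the calls in these lists the fold changes were largest for Cxcl9, a chemokine for T cells (2.93, adjusted p = 1.7e-04), the serpin gene Serpina3f (2.65, adjusted p = 0.0014) and the GTPase gene Tgtp2 (2.4995, adjusted p = 0.0018). Serpina3f and Tgtp2 averaged 0.887 and 0.708 CPM in F121A and 0.163 and 0.145 CPM in WT, and both have close copies whose reads can be split. Other IFN-gamma targets were the nitric oxide synthase Nos2 (2.28, adjusted p = 0.0026) and the guanylate-binding protein genes Gbp4 (2.18, adjusted p = 4.4e-04) and Gbp5 (2.14, adjusted p = 6.2e-04) and the GTPase gene Iigp1 (1.65, adjusted p = 2.7e-04). Cytokine genes were Il6 (2.15, adjusted p = 0.0035), Il1a (1.997, adjusted p = 0.0016), Il1b (1.29, adjusted p = 0.0028) and the interleukin-1 receptor antagonist Il1rn (1.197, adjusted p = 9.3e-04). Resting levels were low for several: Il6 averaged 1.85 CPM in F121A and 0.434 CPM in WT. Il1a averaged 1.05 and 0.293 CPM, and Gbp5 2.59 and 0.589 CPM, in the same order. Dusp2, a phosphatase for MAP kinases, was the only call among 25 immediate-early and stress factors (2.48, adjusted p = 0.013). It averaged 1.07 CPM in F121A and 0.185 CPM in WT. In a fit to the resting libraries alone Dusp2 did not pass the expression filter, and no other member of that list was called.

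For several of the inducible genes, values by library did not follow genotype alone. Cd40, the co-stimulatory receptor, had 16.01, 23.2, 5.65, 5.02, 22.1 and 21.6 CPM in F121A replicates 1 to 6, against 2.57, 3.40, 5.74, 5.85, 4.30 and 5.17 CPM in WT replicates 1 to 6 (1.79, adjusted p = 1.9e-05). Cxcl9 had 11.1, 20.3, 0.844, 0.434, 18.1 and 14.3 CPM in the F121A libraries, in the same order, against 0.0885, 0.537, 1.99, 3.10, 1.52 and 1.84 CPM in WT. Replicates 3 and 4 of F121A lay within the WT range for both genes, while the other 4 were above it. Il12b, a subunit of interleukin 12 named for its high level at 6 h after its values were seen, had 14.8, 17.6, 0.714, 1.549, 15.6 and 14.9 CPM in F121A and 0.266, 0.298, 4.98, 5.16, 2.02 and 2.30 CPM in WT. In WT, replicates 3 and 4 were the highest and replicates 1 and 2 the lowest for Il12b, Nos2, Cxcl9 and Cd40. Replicates with adjacent numbers (1 and 2, 3 and 4, 5 and 6) were thus alike in these genes, and the labels do not say whether they share a mouse or a culture, in which case the 6 libraries would be fewer independent units and the p-values too small. With adjacent replicates summed in pairs, the calls of Il6 (adjusted p = 0.053), Il1b (0.051), Ccl5 (0.090) and Ptgs2 (0.14) are lost, as is that of Il12b, while Cxcl9 (0.012) and Cd40 (0.0024) are called.

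**Figure D3:**
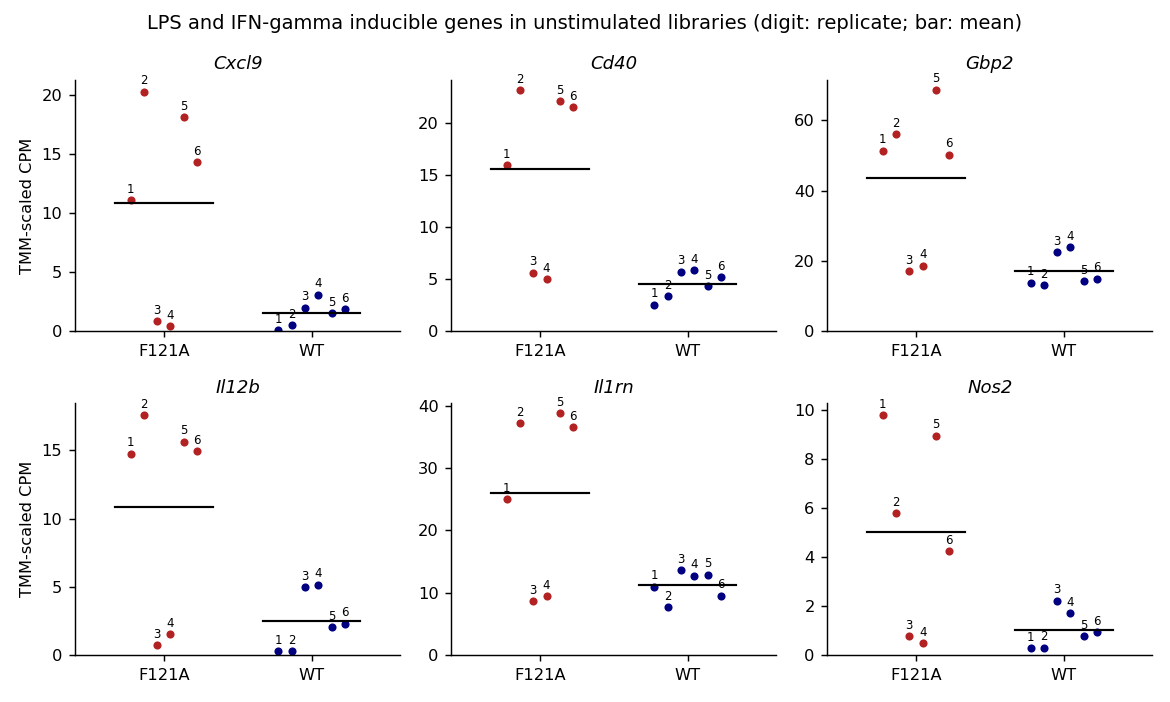
CPM of 6 inducible genes in each unstimulated library, F121A left and WT right, with the replicate number as the symbol and a bar at the mean. F121A replicates 1, 2, 5 and 6 lie above every WT library, and F121A replicates 3 and 4 lie among the WT libraries.

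The excess was read against induction in the cohort. Of 11500 genes, 150 (1.3%) were more than 7 log2 higher in F121A macrophages at 6 h than at rest, and 35 of these were called higher at rest, which is 23.3%, with none lower and a median of 0.41 over the 150. In the classes of less induced genes 2.04% to 2.38% were called higher. Without replicate 5, 31 of the 150 were called higher (20.7%). The induction classes use the resting F121A libraries as their baseline, which lowers the induction of a gene that is high at rest. The expression filter ran over all groups of the cohort, so genes near 0 at rest could enter through their stimulated libraries. Gbp5, Serpina3f, Tgtp2, Il6, Il1a and Dusp2 did not pass it on the resting libraries alone. The estimate of spread is also shared with the stimulated groups, so the 23.3% is not like for like with the other classes. The summed level of the 35 genes was 573, 542, 233, 230, 560 and 466 CPM in F121A replicates 1 to 6, against 212, 180, 258, 254, 189 and 202 CPM in WT. For each of the 35 genes the excess of the F121A mean over the WT mean at rest came to 0.0516% to 0.225% of that gene's mean level in F121A macrophages at 6 h, with a median of 0.0799%, and 22 of the 35 lay between 0.05% and 0.1%. Genes called higher at rest and over 7 log2 induced must have an excess that is small beside the 6 h level. The narrow range is thus partly set by the choice of genes. Whether RNA or reads from stimulated samples have a part in these values was not tested.

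**Figure D4:**
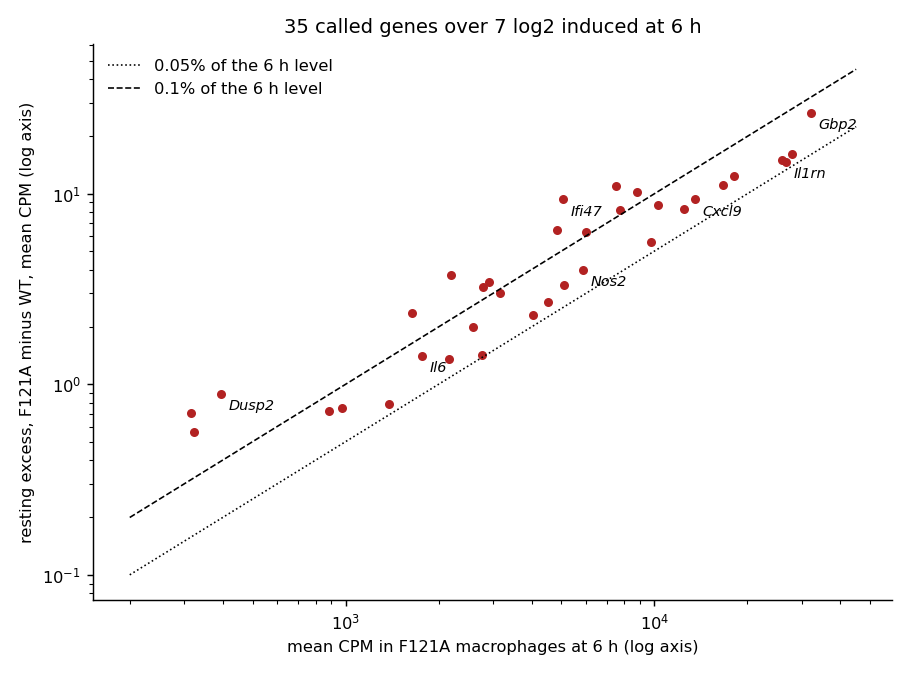
Resting excess of F121A over WT in mean CPM against the mean CPM of F121A macrophages at 6 h, both on log axes, for the 35 called genes over 7 log2 induced. Lines mark 0.05% and 0.1% of the 6 h level, and 22 of the 35 genes lie between them. The choice of genes by induction itself keeps the excess small beside the 6 h level.

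A fit to the 12 resting libraries alone had its own expression filter and lacked the shared spread of the stimulated groups. It called 8 IFN-gamma targets in either direction in place of 13, and 3 inflammatory genes in place of 12. No member of the inflammasome and interleukin-1 list was called, in place of 3. Gbp5, Serpina3f, Tgtp2, Il6, Il1a and Dusp2 did not pass that filter and were not tested there. Nos2, Il12b, Il1b and Il1rn were tested there and their calls were lost. Among other members of these lists, Ifit1, a type I interferon-stimulated gene, had 22.6, 25.01 and 32.2 CPM in F121A and 12.2, 17.4 and 20.2 CPM in WT (0.63, SE 0.12, adjusted p = 6.1e-04). Cxcl10 had 10.3, 12.98 and 21.5 CPM in F121A and 5.25, 7.63 and 9.42 CPM in WT (0.88, adjusted p = 1.6e-04). Rela, the NF-kB subunit p65, had 38.0, 42.8 and 58.1 CPM in F121A and 19.3, 25.8 and 29.2 CPM in WT (0.87, adjusted p = 6.4e-04). The helicase gene Dhx58, a sensor of cytosolic RNA, had 16.4, 18.5 and 20.6 CPM in F121A and 12.2, 13.3 and 14.96 CPM in WT (0.46, adjusted p = 0.0013). In these 4 genes every F121A library lay above every WT library. Rtp4, a chaperone of receptors and an interferon-stimulated gene, had 67.8, 70.4 and 79.7 CPM in F121A and 43.6, 49.1 and 68.6 CPM in WT (0.44, adjusted p = 0.0093), with 5 of the 6 F121A libraries above every WT library. In the nucleic acid sensing list 4 of 19 rose and none fell: Dhx58, Zbp1 (0.59), Ifi205 (1.53) and Mb21d1, which encodes cGAS (0.77). The Mb21d1 call is lost without any of 7 single libraries.

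The 12 called satellite-like transcripts were higher through 1 library. Gm10800 had 186023 CPM in F121A replicate 5, against 430 to 1718 CPM in the other 5 F121A libraries and 935 to 3256 CPM in WT. The log2 fold changes of the 12 ran from 3.98 to 4.47 (the largest adjusted p = 0.0043), and without replicate 5 from -0.97 to -0.54, with none called. Reads of such repeats can match many places in the genome.

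Many other lists held few calls or none in the main fit. None of the tested genes was called in glycolysis (24), hypoxia targets (19), nuclear-encoded oxidative phosphorylation (39), cholesterol synthesis (25), iron handling (18), heat shock proteins (21), the proteasome (30), the cell cycle (41), the TGF-beta superfamily (25), ATF4 targets (21) or Toll-like receptors and adaptors (24), nor among cytosolic ribosomal protein genes (52) and mitochondrially encoded genes (12). Some of these lists leaned to one side without a call. In glycolysis 3 of 24 genes were above 0 (median -0.14), among ribosomal protein genes 6 of 52 (median -0.08) and in cholesterol synthesis 17 of 25 (median 0.11). DESeq2 called 2 ribosomal protein genes, and a fit to the resting libraries alone 3. Single genes were called in the unfolded protein response (Eif2ak3, 0.88, adjusted p = 0.049), in the itaconate and TCA cycle list (Irg1, 0.64, adjusted p = 0.040) and among chemoattractant receptors (Gpr34, 0.55, adjusted p = 0.021). Srm, spermidine synthase, was at 0.88 (adjusted p = 0.027). These 4 calls were near the threshold: that of Eif2ak3 is lost without any of 10 of the 12 single libraries, that of Irg1 without any of 7, that of Gpr34 without any of 5 and that of Srm without any of 4. Called genes were spread over the autosomes and the X chromosome, with 1.97% to 4.2% of the tested genes on each, and their median GC content was 48.8% for higher and 47.6% for lower calls, against 49.1% for all genes. Lower calls lay mostly among abundant genes. The median of the mean log2 CPM was 7.12 for lower calls, 4.16 for higher calls and 3.13 for all genes tested.

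Part of the resting difference was seen after stimulation. F121A and WT differed in 1322 genes at 6 h (11.5%) and in 828 at 24 h (7.2%). Of the 272 genes higher at rest, 106 were called higher at 6 h, which is 39% of them and 11.5% of the 921 genes higher at 6 h (8.01% of genes tested). At 24 h 20 were, 7.35% of them and 5.09% of the 393 higher then (3.42% of genes tested). Of the 66 lower genes 19 were lower at 6 h (28.8% of them and 4.74% of 401 genes, 3.49% of genes tested) and 10 at 24 h (15.2% of them and 2.3% of 435 genes, 3.78% of genes tested). The opposite direction was called for 2 and 7 of the higher genes and for 8 and 8 of the lower genes at 6 h and 24 h.

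Calls in one direction at rest, 6 h and 24 h numbered 24. Lamp1 was among them, with log2 fold changes of 3.62, 2.11 and 1.12 at the 3 times. Its level in F121A was 1354 to 2345 CPM at 6 h and 1340 to 2424 CPM at 24 h, against 229 to 769 CPM and 558 to 1424 CPM in WT. The difference at rest exceeded that at 6 h by 1.51 (adjusted p = 0.0044) and that at 24 h by 2.503 (adjusted p = 4.0e-06). Snx20 had 3.16, 3.69 and 3.10, and neither difference between times passed the test (adjusted p = 0.75 and 0.97). Rac1 had 1.88, 1.77 and 1.79, Cav1 -0.65, -0.99 and -1.31, and Arhgef18 -1.82, -2.997 and -3.51. Alkbh5, C1qc, Sh3glb1, Ifit1, Ly9, Npy, Chi3l3 and S100a8 belonged to the same 24.

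**Figure D5:**
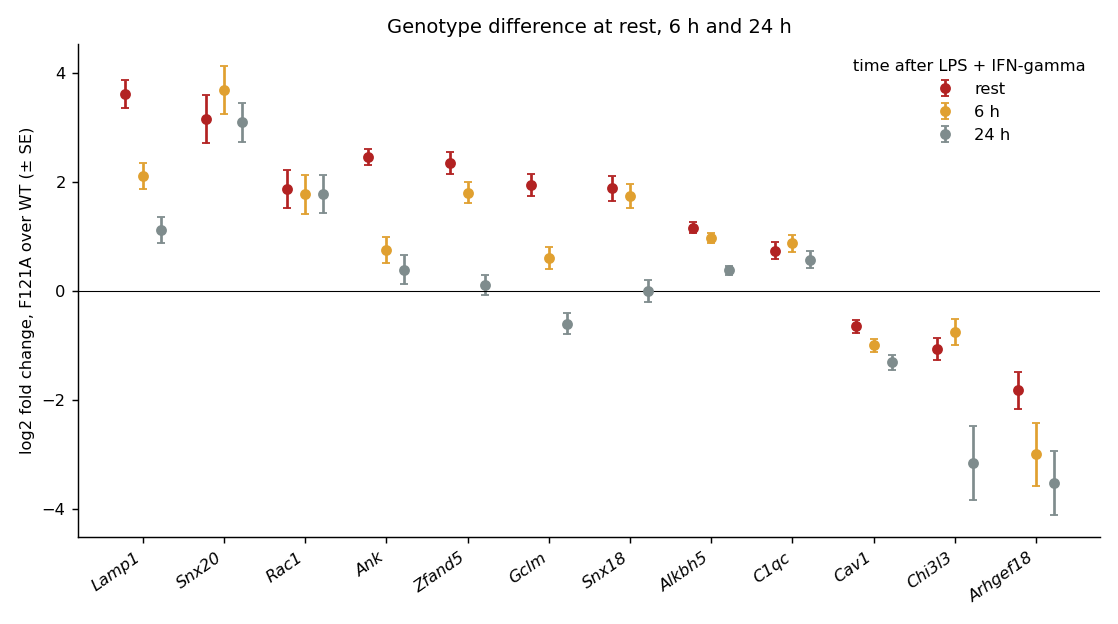
Log2 fold change of F121A over WT with its standard error at rest, 6 h and 24 h for 12 genes. Snx20 and Rac1 stay near their resting values, Lamp1 runs from 3.62 to 1.12, and Gclm, Zfand5, Snx18 and Ank are at or below 0.40 at 24 h.

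Tested directly, the genotype difference at rest differed from that at 6 h in 380 genes (3.3%), 109 with a higher (0.948%) and 271 with a lower value at rest (2.36%), and from that at 24 h in 490 genes (4.26%), 279 higher (2.43%) and 211 lower at rest (1.83%). With every gene of at least 1 count tested, the splits were 219 higher and 222 lower against 6 h and 415 higher and 174 lower against 24 h. Of the 272 genes higher at rest, 48 differed from 6 h and 132 from 24 h, and 47 and 131 of these had the smaller value later. Gclm was at 1.95 at rest, 0.61 at 6 h and -0.60 at 24 h, and the rest and 24 h values differed by 2.54 (adjusted p = 3.2e-07). Zfand5 differed by 2.23, Fam49b by 1.98 and Ccdc90a, a mitochondrial calcium uniporter regulator, by 1.61, with 24 h values of 0.12, 0.09 and 0.002 (adjusted p = 5.2e-07, 6.3e-07 and 5.2e-07). Plin2 was at -0.37 at rest and 0.81 at 24 h, a difference of -1.19 (adjusted p = 5.2e-07). Against 6 h the smallest p belonged to Ggta1 (-1.54), Cyth4 (-1.40), Il4ra (-1.62), Mxd1 (-1.15) and Rin2 (-1.32), none of which was called at rest while all 5 were higher in F121A at 6 h. Cxcl9 was at -0.01 at 6 h, 2.95 below its value at rest (adjusted p = 0.0028).

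The resting effect of F121A was then set against loss of the same gene in KO2, through a joint fit in which each mutant is compared with its own WT. The KO2 macrophages differed from their littermates in 1030 of 11782 genes (8.74%), and the effects of F121A and knockout differed in 456 genes (3.87%), 262 higher (2.22%) and 194 lower (1.65%) for F121A. Becn1 itself was at -3.28 in KO2, 3.21 apart from F121A (adjusted p = 1.4e-27). Of the 272 genes higher in F121A, 31 were higher in KO2 (11.4% of them and 6.77% of the 458 genes higher there, 3.89% of genes tested) and 12 lower. Of the 66 lower genes, 11 were lower in KO2 (16.7% of them and 1.92% of 572 genes, 4.85% of genes tested) and 9 higher. Gbp2 was higher in both, at 1.36 in F121A and 1.598 in KO2, and Snx20 in both at 3.16 and 0.99. Other genes of smallest p for the difference were Xist (8.09), Ly6a (-3.23), Irf7 (-2.92) and Lamp1 (3.79). KO2 knockouts held 0 to 1.08 CPM of Xist, against 115 to 223 CPM in KO2 WT, so the sex chromosomes of the mice and the knockout cannot be told apart there.

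Set on 1 scale with KO2, the WT littermates of F121A were low for several of the genes with large increases. Lamp1 had 1603 to 2606 CPM in F121A, against 120 to 241 CPM in their WT littermates, while KO2 knockouts had 1660 to 2853 CPM and KO2 WT 1930 to 2686 CPM. For Faf1 the ranges were 12.8 to 24.4 CPM in F121A, 1.70 to 4.03 CPM in their littermates, 18.4 to 29.4 CPM in KO2 knockouts and 15.7 to 27.3 CPM in KO2 WT. For Zfand5 they were 74.2 to 129 CPM in F121A, 17.5 to 22.004 CPM in the littermates, 99.8 to 151 CPM in KO2 knockouts and 94.5 to 142 CPM in KO2 WT. In these genes the littermates of F121A stood below the other 3 groups. Ank had 62.3 to 91.2 CPM in F121A, above all others, 12.6 to 17.3 CPM in the littermates, 24.6 to 42.5 CPM in KO2 knockouts and 22.1 to 55.01 CPM in KO2 WT.

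This was counted over the 46 called genes that were over 1 log2 higher without overlap, at most 5 log2 induced and not satellite-like. The WT littermate median lay below every KO2 WT library in 37 of the 46 (80.4%), within their range in 9 and above it in none. The F121A median lay within the KO2 WT range in 24 (52.2%), below it in 14 and above it in 8. Over 11381 genes in both fits, the WT littermate median lay below every KO2 WT library in 19.2% and above in 21.8%. The 46 were chosen for being low in these WT libraries relative to F121A, which by itself favours low WT values, and the cohorts were prepared separately, so that cohort and level cannot be told apart.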

How the data were processed

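Per the labels, RNA of lysed macrophages was amplified by Smart-Seq2 with oligo-dT, made into Nextera XT libraries and sequenced in pairs, without strand or molecular barcodes. The authors deposited raw counts, 1 per gene symbol in each library; TopHat, HTSeq and mm10 stand in the submitters' processing notes without versions. Tables of the knock-in cohort (36 libraries) and KO2 (47 libraries) were used. Of 34573 symbols, 30891 were found in GENCODE vM21.

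Genes were filtered with filterByExpr (minimum count of 10) by group, scaled by TMM and fitted in edgeR 4.0.16 (R 4.3.3) with 1 mean for each of 6 groups. Contrasts were F121A minus WT at rest, and its difference from the same contrast at 6 h, at 24 h and from KO2 in a joint fit. Benjamini-Hochberg adjustment ran over every gene tested. Standard errors were taken as the size of the log2 fold change divided by the root of F. CPM of single libraries uses TMM-scaled library sizes; CPM in the 2 cohorts together was scaled over both.

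The comparison, the gene lists and their members were chosen with earlier results of these data known, so lists are described by counts and medians without a test. Named are Becn1 and tested members of the Beclin1 list, the 14 highest and 14 lowest calls averaging 3 or more in log2 CPM, in each list up to 4 calls by adjusted p (all where it has at most 5) and, for every difference, the 5 genes of lowest p. The rule was applied again without F121A replicate 5, of which 12 of the 14 highest are satellite-like transcripts with it. Simulated data held 200 changed genes, drawn from better expressed genes only, in independent libraries with no outlier. In the resting contrast, 97 of 100 genes changed by 1 log2 and 100 of 100 changed by 2 log2 were called. The simulation does not show how often changes are called in genes with few counts. Nor does it cover libraries that resemble each other or stand apart. Same-numbered libraries did not deviate together (correlations of -0.11 to 0.10), and the main fit did not pair them. Such correlations cannot show whether same-numbered libraries were handled together. No 2 libraries looked like copies. Alternatives were DESeq2 1.42.0, its size factors, every gene with at least 1 count, only the groups compared, the replicate block, a 6 h library with conflicting labels left out and each resting library left out. Those added after seeing the data were adjacent replicates summed in pairs, with and without F121A replicate 5, satellite-like transcripts left out, and the GC trend removed.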

Additional observations from a re-analysis of the deposited data

Results flagged for a closer look

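Values of 106 named genes were checked in both groups of 6 resting libraries for a highest or lowest library far from the rest, which chance flags in about 1 in 20 groups. Of 212 group values 28 stood out, 19 of them in F121A replicate 5. In that library the satellite-like transcripts were at 869 CPM (AC131780.1), 264 (AC131780.2), 19630 (AC131780.3), 5171 (AC242409.1), 28642 (Gm10716), 1764 (Gm10718), 4201 (Gm10719), 1679 (Gm10720), 1493 (Gm10722), 186023 (Gm10800), 8937 (Gm11168) and 473 CPM (Gm17535). Also in F121A replicate 5, Rac1 was at 269 CPM, Clptm1l at 69.4, Gsr at 27.9 and Lcn2 at 3.69, above the other F121A libraries, and Ly9 was at 27.9, Actg-ps1 at 0.527 and Atp6ap2 at 217 CPM, below them.

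The other 9 stood in various libraries. Npy was at 72.7 CPM in F121A replicate 2 and S100a9 at 5.14 CPM in F121A replicate 4. In WT, AC131780.1 was at 15.4 and Gm10719 at 81.1 CPM in replicate 6, Arhgef18 at 0.844 in replicate 5, Ccl5 at 18.6 in replicate 3, Cd200r4 at 21.2 and Serpina3f at 0.688 in replicate 4, and Gm2a at 375 CPM in replicate 1.

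The genotype difference at rest differed from that at 6 h in 380 genes, among them Ggta1 (-1.54), Cyth4 (-1.40), Il4ra (-1.62), Mxd1 (-1.15) and Rin2 (-1.32), as rest minus 6 h in log2. It differed from that at 24 h in 490 genes, among them Gclm (2.54), Ccdc90a (1.61), Zfand5 (2.23), Plin2 (-1.19) and Fam49b (1.98). It differed from the KO2 knockout effect in 456 genes, among them Xist (8.09), Becn1 (3.21), Ly6a (-3.23), Irf7 (-2.92) and Lamp1 (3.79).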

How the results depend on the processing

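At rest 338 genes were called, and leaving out single libraries gave 240 (without WT replicate 1) to 349; for the difference from 6 h the range was 310 to 392, from 24 h 380 to 515 and from KO2 389 to 446. DESeq2 called 390 (277 higher, 113 lower), its size factors 322 (248, 74), every gene with at least 1 count 471 (390, 81), only the groups compared 314 (223, 91), the conflicting library left out 332, satellite-like transcripts left out 323 (251, 72) and the GC trend removed 376 (281, 95). With the replicate block 355 were called, 276 higher and 79 lower, 313 of them shared, although same-numbered libraries did not deviate together. Adjacent replicates summed in pairs gave 248 at rest and 222 in place of 456 for the difference from KO2. Such pairs without F121A replicate 5 gave 193 at rest and 231 for KO2. Fewer units enter these fits. Directions turned only for the 12 called satellite-like transcripts. Without F121A replicate 5 they were Gm17535 -0.54, AC131780.3 -0.68, AC131780.1 -0.79, AC131780.2 -0.97, Gm11168 -0.73, Gm10716 -0.74, Gm10722 -0.74, Gm10720 -0.77, Gm10800 -0.68, AC242409.1 -0.75, Gm10719 -0.81 and Gm10718 -0.85. In pairs without it they were, in the same order, -0.51, -0.54, -0.73, -0.95, -0.60, -0.58, -0.65, -0.68, -0.53, -0.64, -0.69 and -0.74. Leaving out any other library kept the 12 between 3.82 (Gm10718) and 4.74 (Gm17535), with highest values of 4.64 (AC131780.3), 4.49 (AC131780.1), 4.49997 (AC131780.2), 4.46 (Gm11168), 4.47 (Gm10716), 4.44 (Gm10722), 4.42 (Gm10720), 4.40 (Gm10800), 4.42 (AC242409.1), 4.40 (Gm10719) and 4.27 (Gm10718). Genes with a few counts per library are limited by depth, and counting without molecular barcodes does not show how many molecules were read.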
